A study of Mus musculus with 4 samples.

Results

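The comparison described here set the left ventricular transcriptome of banded IL-18 null mice against that of banded wild-type mice. Its members were the genes at or above an intensity of 64 (log2 6, called the floor below) on at least 1 of the 2 arrays, with each gene read from 1 probe set. They numbered 4947 of the 12393 genes with a probe set of their own, and 7446 genes lay below the floor on both arrays. The IL-18 null banded sample was RNA pooled from 6 mice, on a C57BL/6 background, whose aorta had been constricted surgically (transaortic constriction) for 1 week. The wild-type banded sample came from mice with transaortic constriction, and the sources used here did not give its pool size, strain or time since surgery. The other arrays of the study held sham-operated IL-18 null mice (5 mice) and sham-operated wild-type mice, and the series' design text describes pooled RNA in all 4 groups. Each group was 1 array, so the spread between animals was not measured, and each difference below is a description of 2 pooled samples with no replicate check and no p-value. The question was what IL-18 contributes to gene expression in hypertrophy under pressure overload.

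Interleukin-18 is a cytokine of the interleukin-1 family. It is made as an inactive precursor that caspase-1 cuts within inflammasomes, and its receptor signals through MyD88 and IRAK kinases to NF-κB. In the heart, aortic constriction loads the left ventricle, and the muscle responds with a fetal gene programme (natriuretic peptides, β-myosin heavy chain, skeletal α-actin), with matrix deposition and with inflammatory signals of its own, among them the IL-6 family, which acts through gp130, JAK kinases and STAT3 and is restrained by SOCS3. Immediate-early genes such as Fos and Egr1 encode transcription factors that are induced within minutes of a stimulus and decay fast.

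Among the genes furthest above wild type in the IL-18 null banded sample were Socs3, Cd14, Il6, Il1b and Ptx3, and among those furthest below it Tns1, Rabac1, Smyd1 and Fastk. A gene was counted when the log2 difference (IL-18 null minus wild type) was at least 1, which is 2-fold. By that rule 282 genes (5.7% of those measured) were higher and 383 (7.74%) lower in the IL-18 null sample, or 665 (13.4%) in all. For 63 higher and 87 lower genes 1 array was below the floor, so that their differences are bounds ("at least" or "a bound of" below). Such a gene was measured only through the array where it was high, which fixed the sign of its difference. List counts and medians below include such genes. Each list count is to be read beside the shares of all genes, 5.7% higher and 7.74% lower. The median difference over all genes was 0.11, with the middle of the distribution between -0.25 and 0.43. Levels on both arrays correlated with r = 0.929 across the 4454 genes that reached the floor on both, a value across genes, which are not independent replicates. At a log2 difference of 2 or more there were 50 higher and 80 lower genes, at 3 or more 16 and 12, and at 4 or more 7 and 4. Just inside the floor, Zpr1 had intensities of 47.0 in IL-18 null and 64.2 in wild type, whereas Tgds, at 63.8 and 43.6, and Frzb, at 63.8 and 16.1, were just outside. These edge genes were chosen for their position only.

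**Figure D1:**
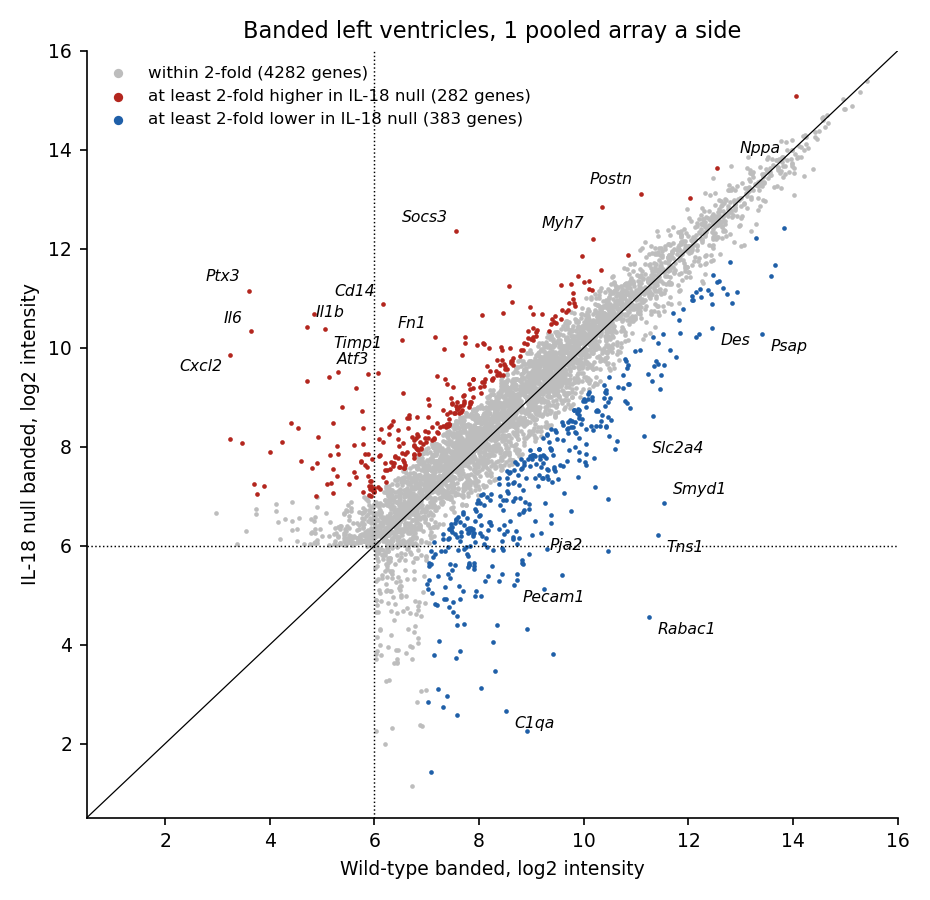
Level of each of the 4947 genes on the wild-type banded array (x axis) and the IL-18 null banded array (y axis), in log2 intensity, 1 point a gene and 1 pooled array a side. Dotted lines mark the floor at 6, the solid line equal levels, red the 282 genes counted as higher and blue the 383 counted as lower in IL-18 null. Ptx3, Il6, Il1b and Cxcl2 stand far left of the line, and Tns1, Smyd1 and Rabac1 far right of it.

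Levels below are log2 intensities, given throughout in the order IL-18 null banded, wild-type banded, IL-18 null sham, wild-type sham. Il18 itself read 3.07, 2.89, 3.04 and 3.19. It was below the floor in every group, wild type included, so the array could not check the genotype. Heart muscle was recognisable in both banded samples: 14 of 15 cardiomyocyte markers were measured, 13 of them within 2-fold, while none of the 9 skeletal muscle markers on the array reached the floor.

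The 2 banded RNAs differed in how well the 5′ part of transcripts was represented. The array carries control probe sets at the 3′ end, the middle and the 5′ end of Gapdh and Actb, and a sample whose labelled RNA is short or incomplete reads lower away from the 3′ end. The Gapdh controls read 13.58, 11.92 and 9.22 (3′, middle, 5′) in the IL-18 null banded sample and 13.90, 14.06 and 13.69 in the wild-type banded sample. Genotype differences were thus -0.32 at the 3′ end, -2.13 in the middle and -4.47 at the 5′ end of the same transcript. For Actb they were -1.58, -4.14 and -2.58. The gap between the 3′ and middle Gapdh probe sets was 1.66 and -0.16 in the banded samples (IL-18 null, then wild type) and 2.73 and 4.61 in the shams. The wild-type banded array stood apart from the other three with a flat profile. Among bacterial control transcripts, the 3′ to middle gap of the dap transcript was 2.81, 0.30, 2.69 and 4.73, whereas the cre controls, which enter at hybridisation, differed between the banded arrays by -0.16 at the 3′ and -0.14 at the 5′ end. The middle and 5′ differences were as large as those of many of the 383 lower genes. The part of RNA quality or of labelling in each gene's difference was not tested, and the 2 were not told apart. Raising the threshold to the size of the middle Gapdh difference, 2.13, a choice made after the data were seen, left 37 higher and 64 lower genes. Gapdh has no probe set assigned to it alone outside these controls.

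**Figure D2:**
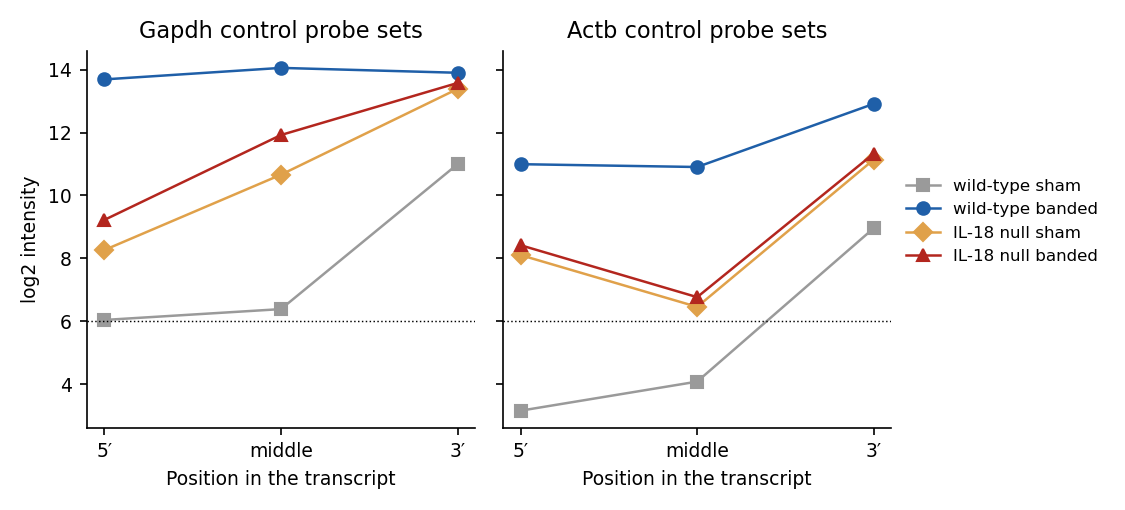
Levels of the Gapdh (left) and Actb (right) control probe sets at the 5′ end, the middle and the 3′ end of the transcript, in log2 intensity, for the 4 pooled arrays; the dotted line is the floor at 6. For Gapdh the wild-type banded array runs flat near 14, while IL-18 null banded goes from 9.22 at the 5′ end to 13.58 at the 3′ end.

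Sequences upstream of 5 of the inflammatory genes are shown first, because these genes were among those higher in the IL-18 null banded sample and NF-κB and STAT3 are textbook regulators of them. Each line holds a stretch of the promoter from RefSeq (assembly GRCm38.p6), 5′ to 3′ on the gene's own strand, and capitals mark a match to a kappa-B motif (Cxcl1, Cxcl2, Il6) or to the STAT motif TTCNNNGAA (Socs3, Icam1).

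Cxcl1, chr5:90891149-90891209, plus strand: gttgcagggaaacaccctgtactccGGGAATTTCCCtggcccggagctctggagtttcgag
Cxcl2, chr5:90903777-90903837, plus strand: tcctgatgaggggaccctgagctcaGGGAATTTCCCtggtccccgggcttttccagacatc
Il6, chr5:30013045-30013104, plus strand: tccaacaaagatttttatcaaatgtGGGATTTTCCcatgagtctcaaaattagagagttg
Socs3, chr11:117969487-117969545, minus strand: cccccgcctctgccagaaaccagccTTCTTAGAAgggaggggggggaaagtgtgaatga
Icam1, chr9:21015873-21015931, plus strand: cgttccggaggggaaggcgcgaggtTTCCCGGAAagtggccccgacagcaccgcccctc

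The Cxcl1 and Cxcl2 matches are the same 11 letters, at 61 to 71 and 87 to 97 bases before the annotated start, and the Il6 match lies at 35 to 44 bases. The search covered both strands of the RefSeq promoter window around the first listed start of each gene. A kappa-B match stood in 31 of the 222 higher genes with a promoter in the table (13.96%), in 41 of 323 lower genes (12.7%) and in 407 of 4053 measured genes (10.04%), so the share was near that of the lower genes. The STAT motif was in 7.21% of higher, 7.74% of lower and 6.34% of measured genes. The AP-1 motif TGANTCA was in 8.56% of higher, 4.95% of lower and 4.86% of measured genes, against 7.93% of all 27025 promoters in the table. A match describes letters and not a used site.

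Il6, Il1b and Socs3 were among the largest differences. Socs3, the feedback inhibitor of gp130 signalling, read 12.36, 7.56, 8.36 and 9.13, a difference of 4.80. Il6, the cytokine that signals through gp130, read 10.33, 3.64, 2.93 and 5.96, a difference of at least 4.33. Il1b, which encodes interleukin-1β, the other main product of the inflammasome, read 10.42, 4.72, 5.68 and 5.91, at least 4.42. In all 3 genes the IL-18 null banded sample was the highest of the 4 arrays, and for Il6 and Il1b it was the sole array above the floor. A second Socs3 probe set gave at least 2.17 and a further one 5.90.

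Of the IL-18 and IL-1 axis, 22 genes were on the array and 15 were below the floor in all 4 groups, including Il18. Of the 7 measured, 3 were higher by 2-fold and 0 lower (median 0.84), against 5.7% and 7.74% of all genes. That median is the bound of Il33. Il33 and Il1b passed the floor in IL-18 null banded alone, so the filter fixed the sign of their differences. At a floor of log2 7, 1 of 6 measured genes was higher (median 0.53). Beside Il1b the higher genes were Il1r1, the receptor of interleukin-1 (7.54, 6.24, 6.64 and 6.66, a difference of 1.29), and Pycard, the inflammasome adaptor ASC (7.98, 6.79, 6.49 and 7.26, a difference of 1.19). The alarmin Il33 (6.84, 4.12, 4.20 and 4.58) passed the floor in IL-18 null banded only, by 0.84. The signalling components below the receptors were within 2-fold: Irak1 differed by 0.08, Map3k7, the kinase TAK1, by 0.53, and Tollip, an adaptor that restrains the receptor, by 0.25. The other Irak1 probe sets gave 0.39, 0.13 and -1.24, and another of Map3k7 gave a bound of -1.50.

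In the IL-6, gp130 and STAT3 list 8 of 16 measured genes were higher and 0 lower (median 0.58), against 5.7% and 7.74% of all genes. Over the alternative processing choices given at the end, the list median ran from 0.11 to 1.05. The lowest came with all probe sets averaged, where 3 of 12 measured genes were higher and 0 lower. Osmr, the oncostatin M receptor, read 9.86, 7.67, 7.33 and 8.07, a difference of 2.19. Fgl2, a prothrombinase of activated macrophages and endothelium, read 10.06, 7.95, 8.01 and 8.001, a difference of 2.11. Averaging over all probe sets of a gene, levels below the floor included, gave 0.031 for Osmr and 0.66 for Fgl2. Here and below, the floor was applied after averaging, so an averaged value can be a bound. No other probe set of Osmr or Fgl2 reached the floor in a banded sample. The IL-18 null banded array was at least 2-fold above each other array for 6 of the 8 genes, and for 102 of all 282 higher genes.

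The NF-κB list held 6 higher and 0 lower genes of 17 measured (against 5.7% and 7.74% of all genes), with a median of 0.62. Over the alternative processing choices this median ran from 0.20 to 0.74. The lowest came with all probe sets averaged, where 3 of 13 measured genes were higher and 0 lower. Cd14, the co-receptor for lipopolysaccharide, read 10.88, 6.17, 6.17 and 6.196, a difference of 4.71. Nfkbiz, an atypical IκB that directs NF-κB to secondary response genes, read 10.16, 6.53, 6.46 and 9.55, a difference of 3.63, and Ptgs2, the prostaglandin synthase COX-2, read 8.48, 4.41, 4.79 and 7.37, at least 2.48. These genes had different patterns outside the banded pair. Cd14 was low and nearly equal on the other three arrays, whereas Nfkbiz and Ptgs2 were also high in the wild-type sham heart. With all probe sets averaged, levels below the floor included, Nfkbiz gave 0.0048 and Ptgs2 at least 0.068. No other probe set of either gene reached the floor in a banded sample. Icam1, the leukocyte adhesion molecule of activated endothelium, read 10.09, 8.08, 6.21 and 6.38, a difference of 2.01, with both banded samples above both sham samples.

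Of 26 chemokines and receptors on the array, 14 were below the floor in all 4 groups. Of the 12 measured, 7 were higher and 0 lower, against 5.7% and 7.74% of all genes. The median was 1.70 against 0.11 for all genes, or 0.86 over the 14 members measured at a floor of 32. Cxcl2, a neutrophil attractant, read 9.86, 3.25, 2.61 and 5.53, a difference of at least 3.86. Ccl2, the main monocyte attractant, read 9.42, 5.13, 4.90 and 5.02, at least 3.42. Ccl8, another monocyte attractant, read 9.18, 5.64, 4.50 and 4.69, at least 3.18. Cxcl2, Ccl2 and Ccl8 passed the floor in the IL-18 null banded heart alone, so the filter fixed the sign of their differences. Cxcl1, the close relative of Cxcl2, behaved otherwise: at 9.97, 7.34, 9.06 and 5.92 it was high in both IL-18 null samples, with a banded difference of 2.64 and a sham difference of at least 3.06. Ptx3, the acute-phase protein pentraxin 3, showed the largest bound among higher genes, 5.14, and read 11.14, 3.60, 3.56 and 4.04.

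**Figure D3:**
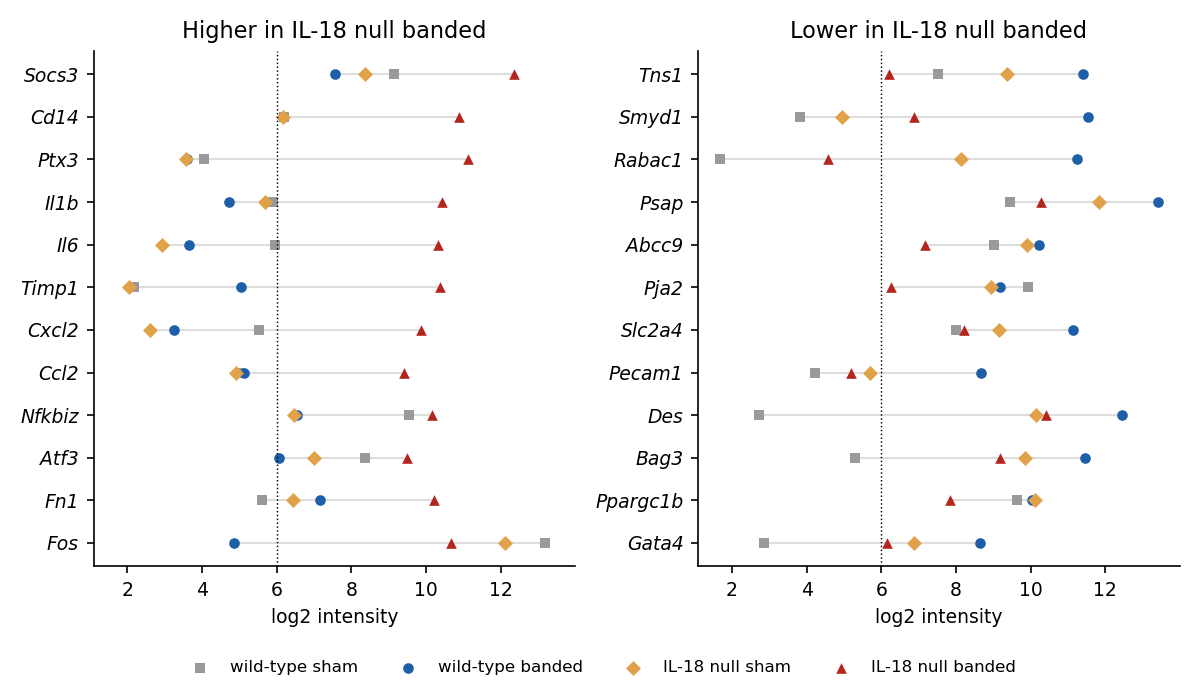
Levels in log2 intensity of 12 genes higher (left) and 12 genes lower (right) in IL-18 null banded than in wild-type banded, 1 marker per pooled array and the floor dotted at 6. On the left the red triangle of IL-18 null banded is rightmost for all genes but Fos; on the right the blue circle of wild-type banded is rightmost for all but Pja2 and Ppargc1b.

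Of 15 interferon response genes 4 were higher and 0 lower (median 0.65), led by Cxcl10, a chemokine for lymphocytes, at 8.09, 4.23, 4.97 and 5.76 (at least 2.09), and by Ifit3, an antiviral RNA-binding protein, at 8.85, 7.03, 7.07 and 7.52 (1.81). Of 12 antigen presentation genes 3 were higher and 0 lower (median 0.31): Ctss, the protease that trims the invariant chain (11.26, 9.57, 9.01 and 9.91, a difference of 1.69), and the class II chains H2-Ab1 (1.204) and H2-Aa (1.06). Among all genes 5.7% were higher and 7.74% lower. IL-18 is best known as an inducer of interferon-γ, and Ifng was below the floor in every group.

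Markers of leukocytes were split by gene. Of 14 measured macrophage markers 5 were higher and 1 was lower, against 5.7% and 7.74% of all genes, and 8 were within 2-fold (median 0.72). Their summed intensity was 12349, 7278, 4716 and 5022 in the order of groups above, and Fcgr1, Fcer1g, Cd163 and Itgam were below the floor in every group. Cd14 is itself one of these markers. Mpeg1, a pore-forming protein of phagocytes, read 9.09, 6.55, 7.18 and 7.07, a difference of 2.53, and Tyrobp, the signalling adaptor of myeloid receptors, read 9.27, 7.81, 7.87 and 8.27, a difference of 1.47. The classic macrophage receptors were closer, at 0.96 for Csf1r and 0.56 for Adgre1, and so were Mrc1 (0.49), Cd68 (a bound of 0.21) and Lyz2 (0.16). These were chosen after their values were seen. The chains of complement C1q, which macrophages make together, did not share a direction: C1qb differed by 1.08, C1qc by -0.27 and C1qa, at 2.66, 8.52, 2.66 and 2.72, with a bound of -2.52. Further C1qb probe sets gave 0.83 and -0.10. Since the tissue was measured in bulk, more cells of a type and more RNA per cell cannot be told apart, and the part of leukocyte number in the cytokine and chemokine differences was not tested.

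Only 4 neutrophil markers were measured, and Mpo, Ngp, Camp, Ltf, Mmp8, Mmp9 and Csf3r were below the floor on all 4 arrays. The calgranulins S100a8 and S100a9 were higher by at least 2.07 and 3.48. The other 2 were within 2-fold, Cxcr2 at 0.11 and Lcn2 at a bound of 0.02. S100a9 read 9.48, 5.88, 8.53 and 9.41, so its low value was the wild-type banded one. The summed intensity of the list was 1317, 331, 825 and 1336, as high in the wild-type sham as in the IL-18 null banded heart.

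Of 23 measured immediate-early genes 9 were higher and 1 was lower (median 0.72), against 5.7% and 7.74% of all genes. In some of the 9 the low sample was the wild-type banded one. Fos read 10.67, 4.84, 12.13 and 13.19, a difference of at least 4.67, and it was higher still in both sham hearts. Btg2, an antiproliferative early gene, read 10.09, 7.73, 9.60 and 10.37, a difference of 2.36, and Zfp36, the mRNA-destabilising protein tristetraprolin, read 10.92, 8.63, 9.77 and 9.09, a difference of 2.29. Among all 282 higher genes, wild-type banded was at least 2-fold below each other array in 18 and IL-18 null banded at least 2-fold above each in 102. Of the 9 genes here, the former held for 4 and the latter for the other 5. Atf3, a stress-induced transcription factor, belonged to the latter, at 9.49, 6.06, 7.0 and 8.36, a difference of 3.43, as did Gadd45b, a stress sensor, at 9.50, 5.31, 6.64 and 7.85, at least 3.50. Jun, the usual partner of Fos, went the other way, at 7.68, 8.85, 8.99 and 8.36 (-1.17), and was named after its values were seen. A second Btg2 probe set gave -0.74.

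Other regulators with the same large differences were Errfi1, an inhibitor of the EGF receptor (11.24, 8.57, 9.30 and 10.38, a difference of 2.67, or 0.90 with probe sets averaged), Phlda1, a growth-regulated protein (10.66, 8.05, 9.56 and 9.94, a difference of 2.61), and Btg1, a relative of Btg2 (10.70, 8.45, 9.65 and 10.54, a difference of 2.25). In these 3 genes the wild-type banded array was the lowest of the 4. For the metal-binding metallothionein Mt2, at 12.85, 10.34, 9.16 and 9.44, wild-type banded lay above both shams and IL-18 null banded was higher still, by 2.51. Hmox1, the heme-degrading enzyme, was also above the floor in IL-18 null banded only (7.67, 4.90, 5.29 and 5.15, at least 1.67). Angptl4, an inhibitor of lipoprotein lipase, read 8.52, 6.36, 7.17 and 7.20, a difference of 2.16.

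Of 45 measured extracellular matrix genes 14 were higher and 2 lower (against 5.7% and 7.74% of all genes), and 36 of 45 differences were above 0 (median 0.68). Timp1, the secreted inhibitor of matrix metalloproteinases, read 10.37, 5.05, 2.04 and 2.17, a difference of at least 4.37. Fn1, fibronectin, read 10.22, 7.15, 6.44 and 5.61, a difference of 3.07, or 0.94 with its probe sets averaged. Lox, the collagen crosslinking enzyme, read 8.81, 5.37, 3.82 and 4.94, at least 2.81, and Thbs4, a thrombospondin of loaded heart and tendon, read 8.48, 5.21, 5.20 and 5.24, at least 2.48. The IL-18 null banded array was at least 2-fold above each other array for 12 of the 14 genes, and for 102 of all 282 higher genes.

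For the fibrillar collagens both banded hearts lay above both shams, with IL-18 null highest. Col1a1 read 10.67, 9.21, 7.82 and 6.78, a difference of 1.47, and 2.25 in another probe set. Col3a1 read 13.64, 12.54, 11.37 and 11.51, a difference of 1.10, and 2.07 in another probe set. Postn, the matricellular protein of activated fibroblasts, read 13.10, 11.10, 9.73 and 9.86, a difference of 2.01, and was named after its values were seen. Matrix genes on the other side were Fbln1 (a bound of -2.34) and Timp3 (-1.41), also named afterwards. Integrin α5, Itga5, the fibronectin receptor subunit, was above the floor in IL-18 null banded only, by at least 2.05, whereas its partner Itgb1 read 9.63, 11.35, 10.03 and 3.70, a difference of -1.72. Other Itgb1 probe sets gave -2.61 and -2.78, and the average over all of them, levels below the floor included, -0.62.

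Fibroblast markers did not move as a block: of 13 measured, 3 were higher and 1 was lower, and the median was 0.13, near the 0.11 of all genes. Their summed intensity was 40882, 38400, 26407 and 23534. Pi16, a marker of quiescent adventitial fibroblasts, read 6.03, 8.73, 5.48 and 5.90, a difference of -2.70. Of 36 proliferation genes on the array, 21 were below the floor in all 4 groups, among them Cdk1, Top2a, Aurkb and Plk1. Of the 14 measured, 4 were higher and 1 lower, against 5.7% and 7.74% of all genes. Mki67, the Ki-67 antigen, read 7.84, 5.14, 3.43 and 3.63 (at least 1.84), Mcm7, a subunit of the replicative helicase, 8.08, 6.54, 5.19 and 5.05 (1.54), and Ccnd3, cyclin D3, 5.82, 8.96, 5.69 and 5.86 (a bound of -2.96).

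The natriuretic peptides and β-myosin were high on both banded arrays, and the genotypes differed in single genes of this programme. Myh7, β-myosin heavy chain, read 12.21, 10.17, 8.89 and 8.27, a difference of 2.03. Nppa, atrial natriuretic peptide, read 13.68, 12.82, 11.18 and 11.41, a difference of 0.86, under the 2-fold mark. Nppb, brain natriuretic peptide, read 12.96, 12.62, 11.82 and 11.24, a difference of 0.33. All 3 genes were higher on both banded arrays than on either sham array, and each was highest in IL-18 null. Acta1, skeletal α-actin, was alike in the banded hearts, at 13.35 and 13.39, against 11.53 and 7.15 in the shams. Myh6, the adult α-myosin heavy chain, read 15.17, 15.28, 15.03 and 15.13, a difference of -0.11 at a level near the top of the scale. A second Myh6 probe set gave a bound of -4.50. The sources used here do not give its position in the transcript, and a link to the 3′ to middle gap was not tested. Atp2a2, the calcium pump SERCA2, read 14.03, 14.28, 14.23 and 13.74, a difference of -0.25.

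Of the 21 measured genes of this list, 4 were higher and 3 lower, against 5.7% and 7.74% of all genes. The other 14 were within 2-fold, and the median was 0.23. Rcan1, the calcineurin inhibitor whose short form is a calcineurin target, read 10.68, 9.03, 8.20 and 6.75, a difference of 1.65, but a second probe set, at 3.62 and 6.87 in the banded samples, gave a bound of -0.87. The average over its probe sets, with that level below the floor included, was -0.80. Igf1, insulin-like growth factor 1, read 9.36, 7.87, 8.15 and 7.81, a difference of 1.49 (0.032 with all probe sets averaged). No other Igf1 probe set reached the floor in a banded sample. Ccn2, connective tissue growth factor, read 11.33, 10.003, 8.32 and 9.23, a difference of 1.33. Each of these 4 higher genes, Myh7 included, was at least 2-fold above each other array in IL-18 null banded, as were 102 of all 282 higher genes. The lower genes were Gata4, a cardiac transcription factor (6.14, 8.65, 6.88 and 2.85, a difference of -2.51), Des, the intermediate filament desmin (10.40, 12.45, 10.14 and 2.72, a difference of -2.05), and Flnc, filamin C (4.87, 7.501, 4.80 and 4.96, a bound of -1.50). All 3 were highest in wild-type banded, and Des gave -0.94 with its probe sets averaged.

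The remaining members were within 2-fold. The mechanical stress genes Ankrd1 and Csrp3 differed by 0.29 and 0.11, Fhl1, a LIM protein of the sarcomere, by 0.97, and Xirp1, a protein of the intercalated disc, by -0.36. Myl4 and Myl7, the atrial myosin light chains, differed by -0.98 and -0.93. Smooth muscle actin Acta2 differed by -0.18, Enah by 0.07, Tuba1a by 0.32 and the kinase Camk2d by 0.25. Mef2c, a transcription factor of the fetal programme, differed by 0.23, but its other probe sets gave -2.82, -0.96 and a bound of -1.94. Of 22 contractile and calcium handling genes 21 were within 2-fold (median -0.16), and Cacnb2, a calcium channel subunit, was the exception at 4.80, 7.19, 6.74 and 4.68 (a bound of -1.19). Cytoplasmic actin, Actb, differed by 0.90 in its gene probe set and by -2.92 in another.

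**Figure D4:**
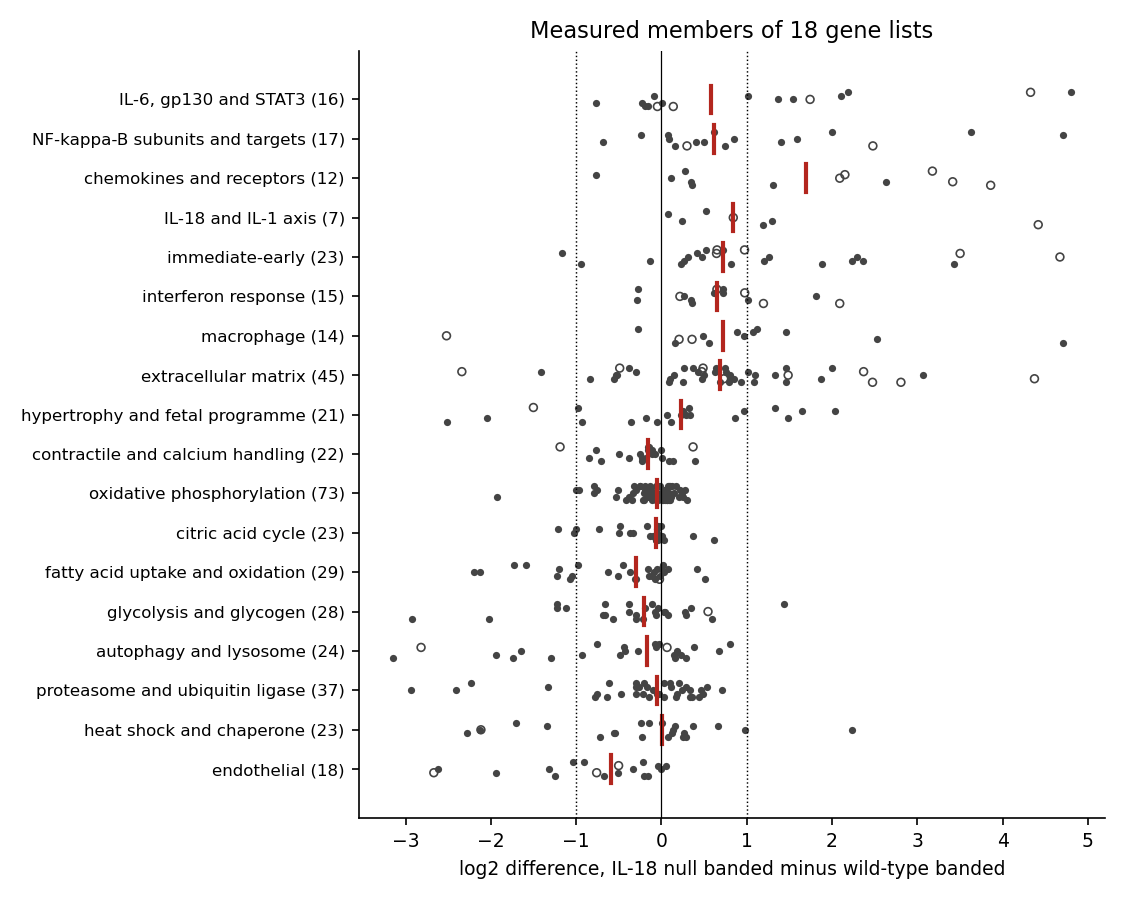
Difference between the banded samples (IL-18 null minus wild type, log2) for each measured member of 18 gene lists, 1 point a gene, open where 1 array was below the floor and the value is a bound; red bars are list medians and dotted lines 2-fold. Points of the inflammatory, immediate-early and matrix lists reach furthest right, while oxidative phosphorylation stays close to 0 with 71 of 73 genes within 2-fold.

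Among genes above the floor in both banded samples, Tns1, tensin 1, which ties actin to focal adhesions, had the largest difference towards wild type: it read 6.22, 11.41, 9.37 and 7.51, a difference of -5.19. Its other probe set gave -1.34. Smyd1, a muscle histone methyltransferase needed for sarcomere assembly, read 6.87, 11.53, 4.94 and 3.83, a difference of -4.66, and a bound of -3.94 in another probe set. Rabac1, a Golgi membrane protein that binds Rab GTPases, read 4.56, 11.24, 8.13 and 1.68, a bound of -5.24. The 3 genes shared a high value in wild-type banded, and Smyd1 was near or below the floor elsewhere.

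Of 12 genes of beta-adrenergic and RGS signalling 2 were lower and 1 higher (median -0.012), against 7.74% and 5.7% of all genes. Prkaca, the catalytic subunit of protein kinase A, read 6.71, 9.75, 8.06 and 3.35, a difference of -3.04. Outside that list, Mapkapk2, the kinase downstream of p38, read 6.61, 9.37, 7.13 and 3.17, a difference of -2.76, and Ppp1ca, a protein phosphatase 1 catalytic subunit, read 7.96, 10.60, 8.21 and 3.72, a difference of -2.64. In these 3 genes the order was wild-type banded, IL-18 null sham, IL-18 null banded and wild-type sham. The middle Gapdh control was likewise highest in wild-type banded (14.06) and lowest in wild-type sham (6.39), and a link was not tested. Others of large size were the lipid carrier Apoe (6.46, 9.37, 6.43 and 2.07, a difference of -2.91) and the growth factor Vegfb (8.62, 11.32, 9.42 and 5.73, a difference of -2.70).

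Of 29 fatty acid genes 8 were lower and 0 higher (median -0.29), against 7.74% and 5.7% of all genes. Ppargc1b, a coactivator of mitochondrial biogenesis, read 7.84, 10.04, 10.13 and 9.63, a difference of -2.19, and Mlycd, which removes malonyl-CoA, read 6.63, 8.76, 8.62 and 3.63, a difference of -2.13. Acads, the short-chain acyl-CoA dehydrogenase, read 8.41, 10.14, 8.73 and 6.42, a difference of -1.72. Ppargc1b was low in IL-18 null banded alone, and so was Ppargc1a, the related coactivator, at 8.24, 9.29, 9.66 and 10.46 (-1.04), whereas Mlycd and Acads were lowest in wild-type sham. Other Ppargc1a probe sets gave -0.28, -0.43, -1.69 and a bound of -1.83. In the citric acid cycle 3 of 23 genes were lower and 0 higher (median -0.067), beside 7.74% lower among all genes. In oxidative phosphorylation 2 of 73 were lower and 0 higher (median -0.046): Atp5g2, a subunit of the ATP synthase ring (10.28, 12.21, 11.40 and 6.11, a difference of -1.93, or -0.90 with probe sets averaged), and Sdhc (-1.01).

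Glucose handling gave 1 higher and 5 lower genes of 28 (median -0.20), against 5.7% and 7.74% of all genes. Slc2a4, the insulin-responsive glucose transporter GLUT4, read 8.21, 11.14, 9.16 and 7.99, a difference of -2.93, with a bound of -2.31 in another probe set. Slc2a1, the basal transporter GLUT1, read 8.74, 7.30, 7.76 and 8.49, a difference of 1.44, and 0.88 in another probe set. Thus the muscle transporter was lower and the ubiquitous one higher in IL-18 null banded. Pdk2, which inhibits pyruvate dehydrogenase, read 9.44, 11.47, 10.38 and 4.95, a difference of -2.02. Acacb, the mitochondrial acetyl-CoA carboxylase, read 8.12, 10.64, 9.05 and 6.11, a difference of -2.52.

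Of 24 autophagy and lysosome genes 6 were lower, 0 higher and 18 within 2-fold (median -0.17), with 7.74% lower among all genes. In all 6 the wild-type banded array exceeded each other array by 2-fold or more, as it did in 240 of all 383 lower genes. Psap, the precursor of the saposins, read 10.27, 13.41, 11.82 and 9.44, a difference of -3.14, and a bound of -5.61 in another probe set. Map1lc3a, which encodes an LC3 protein of the autophagosome, read 10.90, 12.84, 11.08 and 6.02, a difference of -1.94. Ulk1, the kinase that starts autophagy, read 5.65, 8.82, 7.74 and 4.67, a bound of -2.82, or -0.26 with its probe sets averaged. Of 37 proteasome and ubiquitin ligase genes 4 were lower and 33 within 2-fold (median -0.055), beside 7.74% lower among all genes. In this list 17 differences were above 0. The lower ones included Psmd7 (6.85, 9.26, 8.12 and 6.37, a difference of -2.40). Pja2, a ubiquitin ligase that degrades regulatory subunits of protein kinase A, was unlike the rest, at 6.25, 9.19, 8.94 and 9.92 (-2.94): it was low in IL-18 null banded only.

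Chaperones divided. Of 23 measured, 5 were lower and 1 higher (against 7.74% and 5.7% of all genes), with a median of 0.0037. Bag3, the co-chaperone of muscle autophagy, read 9.17, 11.45, 9.85 and 5.30, a difference of -2.28, and Hspb7, a small heat shock protein of muscle, read 11.45, 13.58, 11.85 and 9.30, a difference of -2.12, with a bound of -5.46 and a difference of -4.02 in other probe sets. Hspa1b, the inducible HSP70, was the higher one, at 9.44, 7.20, 12.39 and 7.73 (2.24), so it was highest in IL-18 null sham.

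Endothelial markers were the cell type list with the lowest median, -0.59, among those with over 7 genes measured. The atrial list was lower, at -0.82, but held 4 measured genes, 3 below 0 and 1 above. Of 18 measured endothelial markers, 6 were lower (against 7.74% of all genes), 0 higher and 12 within 2-fold, and 17 of 18 differences were below 0. Cdh5 (-0.007), Tek (-0.16), Kdr (-0.20) and Flt1 (-0.21), named after their values were seen, were close to equal. Pecam1, the junction protein CD31, read 5.20, 8.67, 5.69 and 4.22, a bound of -2.67. Ptprb, the vascular phosphatase VE-PTP, read 6.15, 8.76, 8.79 and 9.23, a difference of -2.61, and Eng, the coreceptor endoglin, read 7.4998, 9.44, 7.73 and 7.61, a difference of -1.94. Pecam1 and Eng were high in wild-type banded, while Ptprb was low in IL-18 null banded. The summed intensity of the endothelial list was 27270, 35985, 32137 and 27686. Cardiomyocyte markers were near equal, with sums of 251662 and 271727 in the banded samples, and Nkx2-5 (6.24, 7.88, 6.82 and 5.94, a difference of -1.63) as the one at 2-fold. Abcc9, the KATP channel subunit SUR2 of muscle and pericytes, read 7.18, 10.21, 9.91 and 9.02, a difference of -3.03, low in IL-18 null banded.

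The position of the banded arrays among all 4 was read for the higher and for the lower genes. This is a description of the same levels and no independent support, since each array enters every statement. A gene with IL-18 null banded at least 2-fold above each other array is higher by definition. One with wild-type banded in that position is lower by definition, so the direction itself is no result. Of 282 higher genes, IL-18 null banded was at least 2-fold above each other array in 102 (1.98% of the 5158 genes measured on any array), and wild-type banded at least 2-fold below each in 18 (0.349%). Of 383 lower genes, wild-type banded was at least 2-fold above each other array in 240 (4.65%), and IL-18 null banded below each in 12 (0.233%). These 12 were Tns1, Sbno1, Abcc9, Pja2, Jup, Ptprb, Ppargc1b, Thoc2, Stard8, Mrpl50, Ppargc1a and Dbt, several of them chosen after their values were seen. Thus most lower genes were genes high in the wild-type banded heart, the array with the flat Gapdh profile, and few were low in IL-18 null banded alone. For 76 lower genes with other measured probe sets, all others shared the sign in 63, and none had another at 2-fold the opposite way. For 76 higher genes the numbers were 54 and 4.

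The same genotype contrast in sham hearts shares no array with the banded one and gave other genes. There 789 of 4851 measured genes (16.3%) were higher in IL-18 null and 305 (6.29%) lower. Of the 4640 genes measured in both surgeries, 5 were 2-fold higher and 5 lower in both, while 54 were higher in banded and lower in sham, and 184 the reverse. Across the 3991 genes at or above the floor on all arrays the differences correlated with r = -0.512 (Spearman's rho -0.563), a description across genes. The wild-type sham array was at least 2-fold below each other array for 627 genes (12.2%) and had the widest 3′ to middle Gapdh gap. The part of RNA quality or of labelling in this correlation was not tested. The 97 of 247 higher genes measured in sham that lay within 1.5-fold there, and 79 of 320 lower genes, compare with 2505 of all 4640 (54.0%).

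Genes with a 2-fold difference by genotype in both surgeries, the same way, were Col1a1, Cxcl1, Hspa1b, Rcan1 and Sorl1 (higher) and Gdap10, Snrpd3, Timp4, Uty and Zbtb16 (lower), named after their values were seen. Timp4, a heart-rich metalloproteinase inhibitor, read 7.65, 9.08, 8.23 and 9.56, differences of -1.43 in banded and -1.33 in sham hearts. Zbtb16, the zinc finger protein PLZF, read 6.91, 8.51, 7.75 and 9.08, differences of -1.59 (-0.75 with probe sets averaged) and -1.33. Sorl1, a sorting receptor, read 7.26, 5.17, 7.33 and 6.10, differences of at least 1.26 and of 1.23. In these 3 genes both IL-18 null samples lay on the same side of both wild-type samples. The same held for Cxcl1, Hspa1b, Gdap10, Snrpd3 and Uty, but not for Col1a1 and Rcan1. Il18 lies on chromosome 9, and Zbtb16 and Sorl1 lie 1.90 Mb and 8.59 Mb from it. Of 65 measured genes within 10 Mb of Il18, 4 (6.15%, against 13.4% of all genes) differed by 2-fold between the banded samples. Beside Zbtb16 and Sorl1 these were Kmt2a (a bound of -1.01) and Usp2 (-1.19), both higher in IL-18 null sham than in wild-type sham. That share covers the banded contrast alone. Of all 4640 genes measured in both surgeries, 10 differed the same way in both, Zbtb16 and Sorl1 among them. The Y-linked Uty gave a bound of -2.37 in one probe set and one of -0.20 in another, and the Y-linked Eif2s3y read 9.38, 8.83, 9.04 and 9.33, so no sample lacked Y-linked expression.

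**Figure D5:**
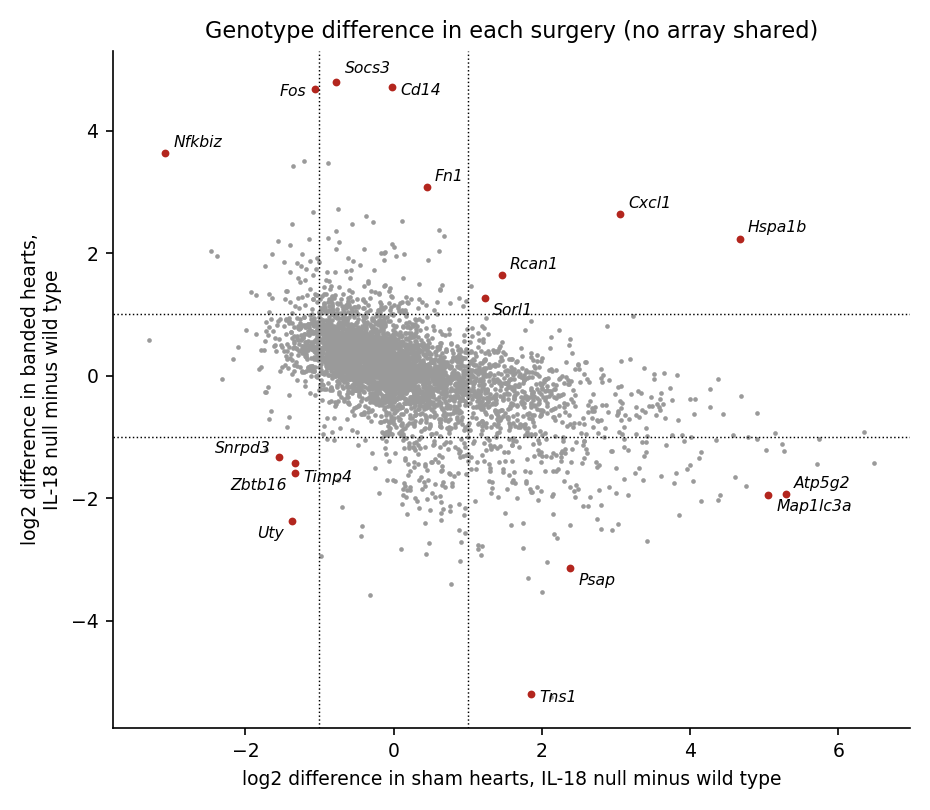
Genotype difference (IL-18 null minus wild type, log2) in sham hearts (x axis) against that in banded hearts (y axis), 1 point for each of the 4640 genes measured in both; dotted lines mark 2-fold and red points are labelled genes. The upper right corner holds 5 genes and the lower left 5, while 184 genes lie at lower right and 54 at upper left.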

How the data were processed

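Total RNA was hybridised with biotin label to 4 Affymetrix arrays, 1 pooled sample a group, and groups were taken from the sample titles. The authors deposited linear intensity values (1.5 to 43811.1) and, per the submitters' processing notes, used GCRMA; the sources used here give neither its version nor any scaling after it. Of 22690 probe sets, the platform annotation gave 1 gene for 20380; control probe sets (64) and those with several genes (691) or none (1555) were left out of gene counts. Of the gene identifiers, 20351 matched RefSeq (GRCm38.p6). Each gene was read from the probe set with the highest mean log2 level over the 4 arrays. Values under 64 were set to 64 before log2 differences were taken, so a gene below it on 1 array gives a bound. With 1 array a side no test was run, and precision is limited by the number of arrays. The members and the 52 gene lists were chosen with earlier results of these data known. Named genes were the 15 largest differences each way among genes measured on both arrays, the 6 largest bounds each way, up to 4 members of each list at 2-fold, a fixed set of cardiac genes and Il18, and all measured members of the IL-18 and hypertrophy lists. Alternatives changed the floor, threshold, probe set rule and scaling (limma 3.58.1, R 4.3.3). Counting was tested on simulated data in Python 3.11.15 with pandas 2.3.3.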

Additional observations from a re-analysis of the deposited data

Results flagged for a closer look

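For 25 named genes, all at or above the floor on the 4 arrays, the genotype difference was at least 2-fold one way in banded hearts and at least 2-fold the other way in sham hearts. With 1 array a group the difference between the surgeries was not tested. The 3′ to middle Gapdh gap also differed between all 4 arrays (1.66, -0.16, 2.73 and 4.61), and its part in the split was not tested. The values below are the banded minus the sham genotype difference, in log2. In 6 genes the banded difference was the higher one: the NF-κB regulator Nfkbiz (6.72), the stress factor Atf3 (4.79), the EGF receptor inhibitor Errfi1 (3.75), the initiation factor Eif1a (2.95), the MAP kinase feedback inhibitor Spry2 (2.78) and the lipid synthesis enzyme Acly (2.24). Among fuel-use genes with a lower banded difference were Atp5g2 (-7.22), Pfkm (-6.50), Ogdh (-6.24), Acacb (-5.47), Pnpla2 (-5.40), Slc2a4 (-4.10), Acads (-4.03), Suclg2 (-3.08) and Dgat2 (-3.003). Among genes of translation they were Eif5a (-6.55), Eef2 (-5.01), Eef1a2 (-4.42) and Rps14 (-4.14). Among genes of turnover and folding they were Map1lc3a (-7.00), Psap (-5.53), Hspb7 (-4.67) and Psmd7 (-4.15). The adhesion gene Tns1 gave -7.05 and the circadian factor Dbp -2.33.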

How the results depend on the processing

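Alternatives were a floor of 32, a floor of log2 7 or none, quantile and cyclic loess scaling, centring of the differences, a mean over each gene's probe sets, no probe sets of the _x_at or _s_at kind, and a 1.5-fold threshold. The count of higher genes (282) was 144 with the mean of all probe sets and 842 at 1.5-fold, and that of lower genes (383) was 690 at 1.5-fold. Other scalings moved the split: cyclic loess gave 195 higher and 474 lower and centring 209 and 447, a share of higher genes of 29.1% and 31.9% against 42.4%, with a median over all genes of -0.057 and -0.012 against 0.11. The count of genes different the same way in both surgeries (10) was 16 at a floor of 32, 6 at log2 7, 16 with no floor, 4 with the mean of all probe sets and 58 at 1.5-fold; that of opposite genes (238) was 807 at 1.5-fold. At the size of the middle Gapdh difference, a threshold chosen after seeing the data, the counts were 37 higher, 64 lower, 2 the same way and 12 opposite. Fewer or more genes pass by construction when the floor or threshold moves; for the mean of all probe sets the cause was not tested. Of the named genes at 2-fold, 3 changed sign: Rcan1 to -0.80 with the mean of all probe sets, and Acly to -0.078 and C1qb to -0.099 without _x_at and _s_at probe sets. Of 139 named genes at 2-fold, 136 kept their direction in all alternatives that could be run and 94 kept 2-fold. Genes that came under 2-fold at the floor of log2 7 included Il1r1 (0.54), Pycard (0.98), Hmox1 (0.67), Mki67 (0.84) and Creld2 (0.95). Rps6 (0.60), Nkx2-5 (-0.88), Flnc (-0.50) and Cacnb2 (-0.19) were others. No paired analysis was possible because each group is 1 array and the labels carry no replicate numbers that could pair samples. The number of arrays and signal near background limit the lower levels.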

Other observations

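Gene groups not yet described were mostly within 2-fold between the banded samples. Cytosolic ribosomal protein genes gave 1 higher and 1 lower of 37 measured (median 0.23), Rps6 (7.60, 6.49, 6.75 and 7.58 in the order IL-18 null banded, wild-type banded, IL-18 null sham, wild-type sham; a difference of 1.10) and Rps14 (11.13, 12.15, 11.52 and 8.41; -1.03). Translation factors gave 1 higher and 3 lower of 30 (median 0.012), with the muscle elongation factor Eef1a2 at 11.67, 13.65, 12.32 and 9.88 (-1.98). Endoplasmic reticulum stress genes gave 1 higher and 1 lower of 16, Creld2 (1.14) and Herpud1 (-1.27).

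Genes of signal regulation were split by gene. Pde4b, a cAMP phosphodiesterase, read 9.95, 8.43, 8.55 and 8.90, a difference of 1.52, while Adcy6, a cardiac adenylyl cyclase, read 7.55, 9.29, 7.33 and 2.96, a difference of -1.74. Bhlhe40, a circadian repressor, read 9.37, 7.89, 7.10 and 7.21, a difference of 1.485. Gpx3, a secreted glutathione peroxidase, read 9.81, 11.76, 10.40 and 5.17, a difference of -1.94. Tubb6, a β-tubulin, read 8.40, 6.28, 4.88 and 5.43, a difference of 2.12.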
